A study of Mus musculus with 12 samples.

Results

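The constitutive proteasome genes of mouse liver were examined on arrays of insulin-deficient mice infused in the brain with leptin or with its vehicle. They were taken as every probe whose symbol in the platform annotation begins with Psma, Psmb, Psmc, Psmd, Psme, Psmf or Psmg and a number, leaving out the immune-inducible Psmb8, Psmb9, Psmb10, Psme1 and Psme2. The rule found 78 of 45281 probes, for 44 of the 19057 genes that a probe names alone. Of these 44 genes, 42 are proteasome subunits, activators or assembly chaperones, and Psmc3ip and Psme3ip1 are none of these and were taken by name. The leptin group had 6 liver arrays of insulin-deficient mice of mixed strain background that received leptin into a brain ventricle (icv, intracerebroventricular), at 25 ng in 0.11 µL per hour, with livers taken at day 10. The PBS group had 6 arrays of insulin-deficient mice of the same mixed background that received phosphate-buffered saline by the same route. Both groups lack insulin, so no array shows the liver of a mouse with insulin, and the labels do not say how the deficiency was made. The labels number the arrays within a group and do not say that each is a separate mouse, so a p-value here weighs a difference against the spread among these samples only, and that spread may be technical.

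The proteasome is the protease complex that degrades proteins tagged with ubiquitin. Its core particle is a stack of rings of alpha and beta subunits, in which Psmb5, Psmb6 and Psmb7 carry the cutting sites. The regulatory particle caps the core: a ring of ATPases (Psmc genes) unfolds the substrate and feeds it in, and the non-ATPase subunits (most Psmd genes) bind ubiquitin, remove it and hold the particle together. Chaperones build both particles, and other activators can take the place of the cap. In mammals the transcription factor Nfe2l1 raises proteasome genes together when proteasome activity falls short, through antioxidant response elements in their promoters.

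Promoters are shown for 4 members, to let the reader see the sequence before each start site. They are those of Psmc5 and Psmd6, which were lower with leptin, of Psmd12, which fell just short of the threshold, and of the core catalytic subunit Psmb5, which did not pass the test. Each is the 250 bases before the gene's start in RefSeq, build GRCm38.p6, written 5′ to 3′ on the gene's strand. These 4 were chosen after their values were seen. Psmc3, which was also lower with leptin, matched no RefSeq promoter entry and is not shown. Capitals mark matches to the letters TGACNNNGC or TGAGNNNGC on either strand, the 2 spellings searched for the antioxidant response element.
Psmc5 promoter, chr11:106255935-106256184, plus strand: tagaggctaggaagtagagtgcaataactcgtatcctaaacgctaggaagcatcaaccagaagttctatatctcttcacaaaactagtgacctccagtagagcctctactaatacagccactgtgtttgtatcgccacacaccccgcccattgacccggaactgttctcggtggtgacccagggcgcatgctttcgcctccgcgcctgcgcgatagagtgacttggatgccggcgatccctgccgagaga
Psmd6 promoter, chr14:14120946-14121195, minus strand: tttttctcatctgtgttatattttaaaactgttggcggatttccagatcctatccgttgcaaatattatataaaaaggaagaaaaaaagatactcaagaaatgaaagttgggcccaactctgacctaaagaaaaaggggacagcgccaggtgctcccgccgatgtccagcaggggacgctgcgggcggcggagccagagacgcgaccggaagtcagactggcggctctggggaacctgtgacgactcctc
Psmd12 promoter, chr11:107479278-107479527, plus strand: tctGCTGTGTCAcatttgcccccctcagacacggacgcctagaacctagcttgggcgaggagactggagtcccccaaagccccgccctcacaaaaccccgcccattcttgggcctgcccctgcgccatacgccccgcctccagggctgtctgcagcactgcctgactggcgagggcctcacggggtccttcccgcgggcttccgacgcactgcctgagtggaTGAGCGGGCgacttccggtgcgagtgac
Psmb5 promoter, chr14:54617996-54618245, minus strand: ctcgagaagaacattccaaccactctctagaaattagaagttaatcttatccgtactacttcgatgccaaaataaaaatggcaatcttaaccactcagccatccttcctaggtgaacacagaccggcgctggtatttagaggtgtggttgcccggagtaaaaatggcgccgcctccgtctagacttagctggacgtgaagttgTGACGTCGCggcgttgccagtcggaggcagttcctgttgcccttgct
Psmd12 had a match on the reverse strand from 247 to 239 bases before the start and another from 28 to 20 bases before it. Psmb5 had a match from 47 to 39 bases before its start. Psmc5 and Psmd6 had no match to these letters in this window. Of the 44 genes, 36 matched an entry of the RefSeq promoter table, and 13 of them (36.1%) held either spelling, against 6932 of 27025 promoters of the same length in the table (25.7%). The regulatory particle had 4 of 14 promoters with a match (28.6%) and the core particle 5 of 12 (41.7%). The CCAAT box, searched as CCAAT on both strands, was in 4 of 14 regulatory particle promoters (28.6%), in 7 of 12 core promoters (58.3%) and in 37.5% of all promoters in the table. These matches are a description of letters, and binding was not measured.

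Each probe had an intensity and a detection p-value on each array, and a probe was called detected at a detection p below 0.01. Between 13159 and 14431 probes were detected per array, and the number of arrays limits the precision of each value. Of the 78 proteasome probes, 54 were detected on all 12 arrays and 15 on none. Levels are normalized log2 intensities, and differences are leptin minus PBS on that scale. A probe was tested where it was detected on at least 3 arrays, which kept 61 of the 78 probes, and the kept probe of highest mean stood for its gene, which left 37 of the 44 genes. A member could therefore pass through the arrays of 1 group alone. The 7 genes with no tested probe were Psma1, Psma3 and Psma6 of the alpha ring, the thymus beta subunit Psmb11, the ATPase Psmc6, the non-ATPase Psmd3 and the chaperone Psmg4. None of their probes was detected on any array, and each is not well above background here.

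Of the constitutive proteasome, 2 ATPases of the regulatory particle that were detected on every array, Psmc3 and Psmc5, were lower with leptin, and no gene of the core particle passed the test. A further subunit near background, Psmd6, also passed, but it had entered the test through the PBS arrays, where it was the higher. The ATPases Psmc3 and Psmc5 and the non-ATPase Psmd6 were lower, and no member was higher, by limma with Benjamini-Hochberg adjusted p below 0.05 over all 8819 genes tested. These 3 of 37 genes stand beside 741 of 8819 genes lower (8.40%) and 733 higher (8.31%), and 16.7% called in either direction. The share of members called is therefore no larger than that of all genes. Over the 34 members detected on at least 3 arrays in each group, a count added after the data were seen, 2 were lower (5.88%), against 8.46% of the 7952 such genes. At an unadjusted p below 0.05 there were 12 of 37 members (32.4%), against 32.2% of all genes. In sign, 31 of 37 members were below 0, against 49.5% of all genes, and their median difference was -0.17, against 0.0039 over all genes. The median is a description of this list, with no test. In bulk liver, fewer cells of a type and less RNA per cell cannot be told apart.

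**Figure D1:**
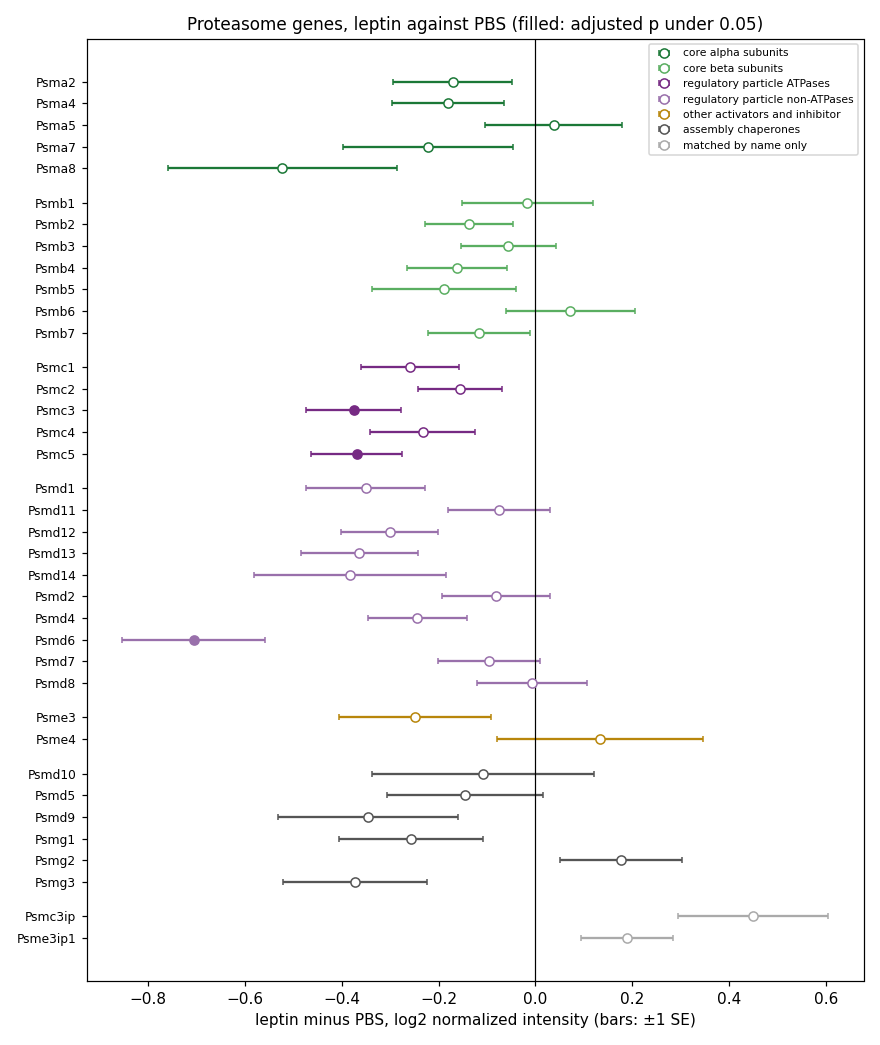
Leptin minus PBS difference in normalized log2 intensity for the 37 tested genes, grouped by role, with bars of 1 standard error on either side and filled points for an adjusted p below 0.05. All 15 regulatory particle genes that the symbol rule takes lie below 0, from -0.71 for Psmd6 to -0.01 for Psmd8. The filled points are Psmc3, Psmc5 and Psmd6.

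The ATPase ring of the regulatory particle had 5 tested genes of 6, and all 5 were below 0. Of them 2 were lower, against 8.40% of all genes, 4 had an unadjusted p below 0.05, against 32.2% of all genes, and the median difference was -0.26. Psmc3, an ATPase that helps open the gate of the core, had intensities of 1727.9 to 2076.4 on the leptin arrays (median 1910.05), against 2230.9 to 2797.9 on the PBS arrays (median 2397.85). Every leptin array lay below every PBS array. On the log2 scale Psmc3 averaged 10.81 ± 0.10 with leptin and 11.19 ± 0.13 with PBS (SD, n = 6 each), a difference of -0.38 ± 0.10 (SE; limma adjusted p = 0.0204), or a change of -22.9%.

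Psmc5, another ATPase of the ring, had intensities of 1101.5 to 1308 on the leptin arrays (median 1245.2), against 1446.2 to 1682.3 on the PBS arrays (median 1556.25). These groups did not overlap either. Psmc5 averaged 10.13 ± 0.11 with leptin and 10.50 ± 0.09 with PBS (SD, n = 6 each), a difference of -0.37 ± 0.09 (SE; limma adjusted p = 0.0181), or a change of -22.6%. A second Psmc5 probe gave -0.40 ± 0.10 (SE; limma adjusted p = 0.0163 over all probes), again with every leptin array below every PBS array. The 3 kept probes of Psmc3 and Psmc5 thus gave -0.40 to -0.37. Groups without overlap were seen for 642 of 8819 genes (7.28%) and for 3 of 37 members.

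The other ATPases did not pass the test. Psmc1 had log2 levels of 9.84 ± 0.13 with leptin and 10.10 ± 0.12 with PBS (SD, n = 6 each), with 5 of 6 leptin arrays below the lowest PBS array. Its difference was -0.26 ± 0.10 (SE; limma adjusted p = 0.0917). Psmc4 differed by -0.23 ± 0.11 (SE; limma adjusted p = 0.155). Psmc2 differed by -0.16 ± 0.09 (SE; limma adjusted p = 0.238), with 5 of 6 leptin arrays below the lowest PBS array. Each of these 3 ATPases had a smaller difference than Psmc3 and Psmc5, and those differences between genes were not tested. The intensities of the 5 ATPase probes summed per array to between 11501.9 and 13482.7 with leptin and between 13586.8 and 15272.1 with PBS, without overlap.

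The non-ATPase subunits that the symbol rule takes had 10 tested genes of 11, all 10 below 0, with a median of -0.27. Psmd6 alone passed the test, and 5 had an unadjusted p below 0.05, against 32.2% of all genes. Psmd6, a structural subunit of the lid, had intensities of 122.2 to 138.5 on the leptin arrays (median 130.35), against 141.6 to 167 on the PBS arrays (median 150.35). It was detected on 1 of 6 leptin arrays and on 6 of 6 PBS arrays, so its leptin level lies at the edge of background and it was kept for the test through the PBS arrays. Psmd6 averaged 5.02 ± 0.22 with leptin and 5.72 ± 0.28 with PBS (SD, n = 6 each), a difference of -0.71 ± 0.15 (SE; limma adjusted p = 0.00719). This difference has no reading as a fold at these dim signals, and in the authors' deposited table the log2 difference of Psmd6 was -0.22. With detection required on at least 9 arrays Psmd6 was not tested. The other Psmd6 probe was detected on no array.

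Just outside the threshold stood Psmd13, a lid subunit, with a difference of -0.36 ± 0.12 (SE; limma adjusted p = 0.0533). Its intensities were 3676.6 to 4865.4 on the leptin arrays (median 4451.65) and 4508.1 to 6713.7 on the PBS arrays (median 5685.1), which overlap. Psmd12, a lid subunit, differed by -0.30 ± 0.10 (SE; limma adjusted p = 0.0547). Its intensities were 1467.2 to 1932.1 with leptin (median 1538.1) and 1777.3 to 2058.9 with PBS (median 1950.35), and 5 of 6 leptin arrays lay below the lowest PBS array. Leptin array 3, at a log2 level of 10.84 against 10.42 to 10.57 on the other leptin arrays, was the one that overlapped. Psmd1, the large scaffold of the base, had intensities of 4123.3 to 5726.6 with leptin (median 5065.5) and 5146.4 to 7084.8 with PBS (median 6289.1), with 4 of 6 leptin arrays below the lowest PBS array. Its difference was -0.35 ± 0.12 (SE; limma adjusted p = 0.0652).

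**Figure D2:**
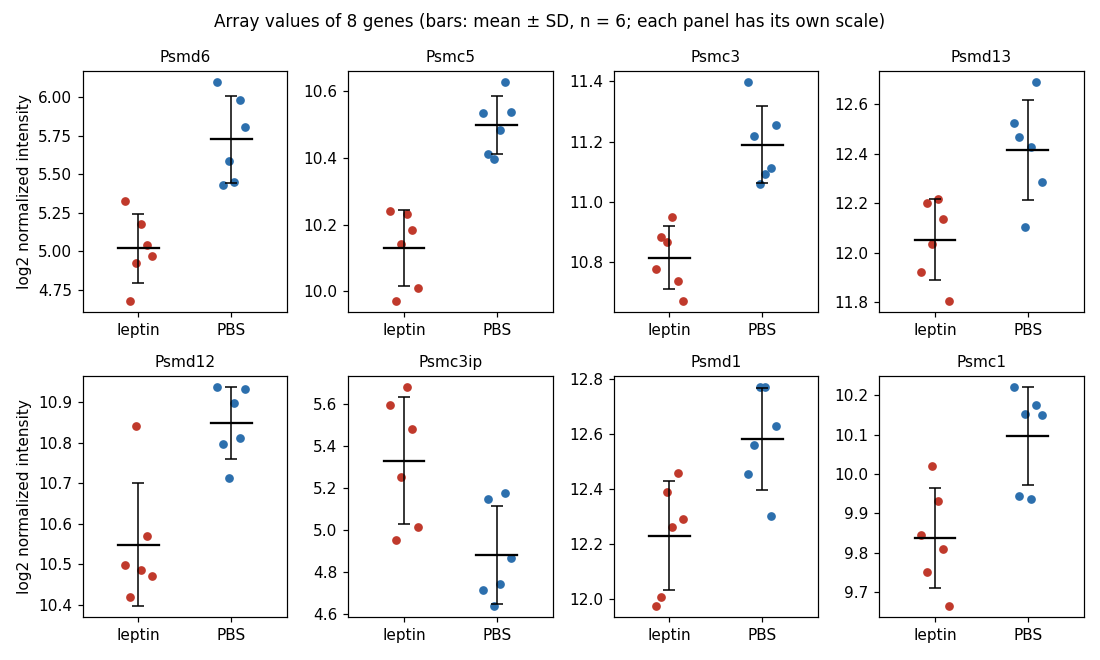
Normalized log2 intensity on each array for the 8 genes of smallest adjusted p, leptin left and PBS right, with bars for the mean and SD of 6 arrays and a separate vertical scale in each panel. The groups do not overlap for Psmd6, Psmc5 and Psmc3, and in Psmd12 only leptin array 3, at 10.84, reaches into the PBS range.

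Of the remaining non-ATPases, Psmd14, the enzyme that cuts ubiquitin chains off substrates, differed by -0.38 ± 0.20 (SE; limma adjusted p = 0.202). Its log2 levels were 7.64 ± 0.23 with leptin and 8.03 ± 0.47 with PBS (SD, n = 6 each), with the wider spread in the PBS group. Psmd4, a ubiquitin receptor, differed by -0.24 ± 0.10 (SE; limma adjusted p = 0.116), with 5 of 6 leptin arrays below the lowest PBS array. Psmd2, Psmd7, Psmd8 and Psmd11 had differences from -0.10 to -0.01, and their limma adjusted p-values were 0.567 to 0.975. The Psmd2 probe was near background, at 144.4 to 164.6 with leptin and 151.7 to 161.4 with PBS. Though it was detected on 6 of 6 arrays of each group, this limits what its small difference can say. The non-ATPase intensities summed per array to between 18775.9 and 22899.8 with leptin and between 24484.9 and 27697.8 with PBS, without overlap. Over both parts of the regulatory particle 3 of 15 genes were lower, against 8.40% of all genes, and 9 of 15 had an unadjusted p below 0.05, against 32.2%. Without Psmd6, kept through the PBS arrays, these counts were 2 of 14 and 8 of 14. The lid subunit Sem1 falls outside the symbol rule and was above 0, at 0.27 ± 0.13 (SE; limma adjusted p = 0.167). All 15 genes that the rule takes were below 0, with a median of -0.26 and of -0.25 without Psmd6. The sign held in 15 of 15 under median scaling, without background correction and with the deposited log2 values, and in 14 of 15 with array weights or with the mean of a gene's probes, where Psmd8 was above 0. With 1 array left out it held in 14 or 15 of 15.

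The core particle had 12 tested genes of 16, and none passed the test by limma. At an unadjusted p below 0.05 there was 1, Psma8, and no core gene passed by the p-values in the authors' deposited table after adjustment over all genes. The median difference was -0.15, with 10 of 12 below 0, and the same count was found under median scaling and without background correction. It was 11 of 12 with the mean of a gene's probes and 9 to 11 of 12 with 1 array left out. Without both PBS array 3 and leptin array 4 it was 12 of 12. The core differences ran from -0.52 to 0.07, against -0.71 to -0.01 in the regulatory particle. Without the dim Psma8 and Psmd6 they ran from -0.22 to 0.07 in the core and from -0.38 to -0.01 in the regulatory particle.

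Of the alpha subunits, which form the outer rings and the gate, 5 of 8 were tested, with a median of -0.18. Psma8, the testis form of an alpha subunit, was detected on 0 of 6 leptin arrays and on 3 of 6 PBS arrays. Its log2 levels were 4.66 ± 0.23 with leptin and 5.18 ± 0.60 with PBS (SD, n = 6 each), and its difference of -0.52 ± 0.24 (SE; limma adjusted p = 0.144) has no reading as a fold at these dim signals. Psma7 had intensities of 2859.6 to 4453 with leptin (median 4104.9) and 3431.3 to 6751.1 with PBS (median 4647.25). These ranges overlap, and the difference was -0.22 ± 0.18 (SE; limma adjusted p = 0.407; 95% interval -0.60 to 0.16). Psma2, Psma4 and Psma5 had differences of -0.17, -0.18 and 0.04, and no interval among them excluded 0.

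The beta subunits form the inner rings, and 7 of 8 were tested, with a median of -0.12 and 0 of 7 at an unadjusted p below 0.05. Psmb5, which carries the chymotrypsin-like site, had intensities of 719.1 to 1093.5 with leptin (median 902.15) and 765.6 to 1245.8 with PBS (median 983.75). The groups overlapped and the difference was -0.19 ± 0.15 (SE; limma adjusted p = 0.405; 95% interval -0.51 to 0.13). Psmb4, a structural beta subunit, differed by -0.16 ± 0.10 (SE; limma adjusted p = 0.306; 95% interval -0.38 to 0.06). The trypsin-like subunit Psmb7 differed by -0.12 and the caspase-like subunit Psmb6 by 0.07. Psmb1, Psmb2 and Psmb3, non-catalytic members of the ring, had differences from -0.14 to -0.02. Across the 7 genes the 95% intervals reached from -0.51 to 0.36, so a change as large as that of Psmc3 is inside some of them and outside others.

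The 2 particles were then set side by side on each array, as the mean over their genes of the log2 level relative to each gene's own mean over the 12 arrays. The regulatory particle averaged -0.13 ± 0.06 with leptin and 0.13 ± 0.08 with PBS (SD, n = 6 each). The leptin arrays ran from -0.19 to -0.04 and the PBS arrays from 0.02 to 0.26, so the groups did not overlap. The core particle averaged -0.07 ± 0.16 with leptin and 0.07 ± 0.21 with PBS (SD, n = 6 each). The leptin arrays ran from -0.34 to 0.11 and the PBS arrays from -0.19 to 0.40, with wide overlap. Leptin array 6 had the lowest core value and PBS array 1 the highest. The core mean includes Psma8 and the regulatory particle mean includes Psmd6, both kept for the test through the PBS arrays, where they were higher. With detection required on at least 9 arrays both genes drop out. The regulatory particle mean of all 6 leptin arrays was then still below that of every PBS array.

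The core genes thus differed more among arrays of 1 group than the regulatory particle genes did. The median residual SD of a gene was 0.20 in the core and 0.14 in the regulatory particle, against 0.28 over all genes tested. The core value minus the regulatory particle value was 0.06 ± 0.12 with leptin and -0.06 ± 0.13 with PBS (SD, n = 6 each), a difference of 0.13 between groups. These values ran from -0.15 to 0.20 with leptin and from -0.21 to 0.15 with PBS and overlapped. The difference between the particles was given no test, because the members were chosen with results of these arrays known.

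**Figure D3:**
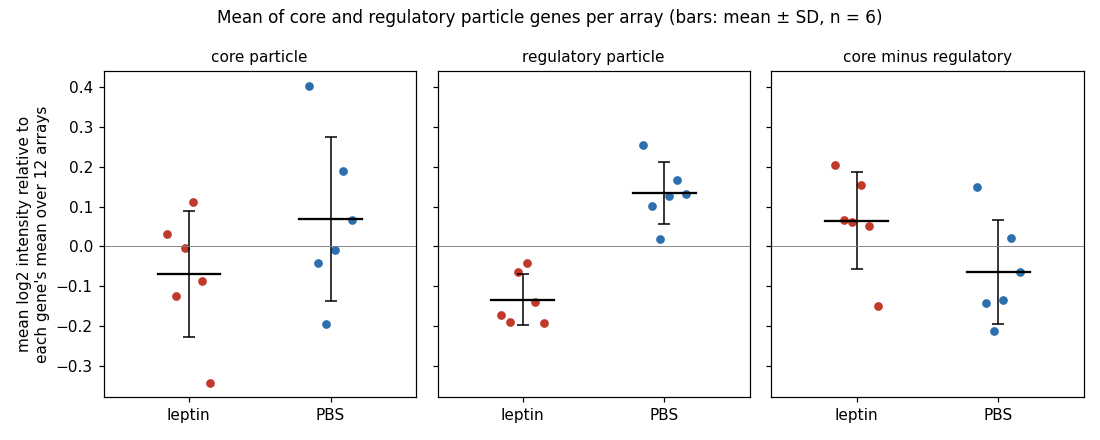
Mean log2 intensity of the 12 core genes, of the 15 regulatory particle genes and of core minus regulatory particle, each relative to the gene means over 12 arrays, with a point per array and bars for the mean and SD of 6 arrays. The regulatory particle values are -0.19 to -0.04 with leptin and 0.02 to 0.26 with PBS without overlap, and the other 2 measures overlap. The core genes include Psma8 and the regulatory particle genes include Psmd6, both dim and kept through the PBS arrays.

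The other activators are Psme3, which forms a cap on nuclear proteasomes, and Psme4, a large single-chain activator. Neither passed the test, and neither had an unadjusted p below 0.05. Psme3 differed by -0.25 ± 0.16 (SE; limma adjusted p = 0.295). Psme4 differed by 0.13 ± 0.21 (SE; limma adjusted p = 0.704), with a 95% interval of -0.32 to 0.59.

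The assembly chaperones had 6 tested genes of 7, of which none passed the test, 1 had an unadjusted p below 0.05 and 5 were below 0, with a median of -0.20. Psmg3, which helps to build the alpha ring, had intensities of 486.6 to 595.7 with leptin (median 558.2) and 538.4 to 853.7 with PBS (median 683.75). The PBS arrays spread more than the leptin arrays, and the difference was -0.37 ± 0.15 (SE; limma adjusted p = 0.0991). Psmd9, a chaperone of the ATPase ring, differed by -0.35 ± 0.19 (SE; limma adjusted p = 0.218). The ATPase ring chaperones Psmd5 and Psmd10 differed by -0.15 and -0.11. The alpha ring partners Psmg1 and Psmg2 differed by -0.26 and 0.18, and neither passed the test.

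The 2 genes that the rule took by name alone both had differences above 0. Psmc3ip, a meiotic recombination factor, was detected on 3 of 6 leptin arrays and on no PBS array, with intensities of 129.1 to 149.8 (median 139.9) with leptin and 121.1 to 134.6 (median 125.45) with PBS. Its difference was 0.45 ± 0.15 (SE; limma adjusted p = 0.0607), and its signals are too near background for a fold. Psme3ip1, a protein that binds Psme3, differed by 0.19 ± 0.10 (SE; limma adjusted p = 0.189). Leaving both out, 31 of the 35 proteasome genes tested were below 0.

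Probes of the same gene did not always give the same answer. Tested as separate features over all 15062 kept probes, 11 of the 61 member probes passed, against 18.1% of all kept probes. They were 10 lower, against 9.76% of all kept probes, and 1 higher. Of the 55 member probes detected on at least 3 arrays in each group 7 were lower (12.7%), against 9.55% of all such probes, and none was higher by limma. In the regulatory particle 8 of 25 probes were lower, 1 was higher and 24 of 25 were below 0. In the core 1 of 19 probes was lower and 17 of 19 were below 0. Some of these probes share a gene: 6 regulatory particle genes and 1 core gene held a lower probe. The 8 include the Psmd6 probe, kept through the PBS arrays. The 1 higher probe and the 1 lower core probe were each detected on no array of 1 group. Of the 18 genes with more than 1 kept probe, 6 had a probe that passed beside one that did not, and these 6 were picked out after their values were seen. In each of them the brightest probe, which stood for the gene, did not pass, and for Psmd1 the dimmest did not either.

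For Psmd7, a lid subunit, the brightest probe gave -0.10, while the others gave -0.44 ± 0.12 (SE; limma adjusted p = 0.0189) and -0.64 ± 0.19 (SE; limma adjusted p = 0.0351). For Psmd1 a second bright probe gave -0.42 ± 0.12 (SE; limma adjusted p = 0.0306) and the remaining, dimmer one -0.04. For Psmd11, a lid subunit that clamps the regulatory particle to the core, a dimmer probe gave -0.56 ± 0.12 (SE; limma adjusted p = 0.00693). That probe was near background, at 138.1 to 151.8 with leptin and 154.3 to 179.8 with PBS, though detected on 6 of 6 arrays of each group. Its difference has no reading as a fold, and in the authors' deposited table it was -0.20. In these 3 genes of the regulatory particle the discordant probes pointed lower.

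The other discordant probes were detected on no array of 1 of the groups and give bounds only, set against the lowest signal of a detected probe. Each was kept for the test through the arrays of the group where it is high, so that its p-value is no independent sign of a change. A dim Psma5 probe, detected on 0 of 6 leptin and 4 of 6 PBS arrays, was at least 1.2-fold lower (limma adjusted p = 0.00333), with log2 means of 4.70 with leptin and 5.55 with PBS. A dim Psme4 probe, detected on 0 of 6 leptin and 3 of 6 PBS arrays, was at least 1.02-fold lower (limma adjusted p = 0.0280), with log2 means of 4.78 with leptin and 5.31 with PBS. A dim Psmd8 probe, detected on 5 of 6 leptin and 0 of 6 PBS arrays, was at least 1.08-fold higher (limma adjusted p = 0.0235), with log2 means of 5.46 with leptin and 5.0 with PBS. The 4 probes of Psmb7 gave -0.40 to -0.12, with a lowest adjusted p of 0.0559.

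**Figure D4:**
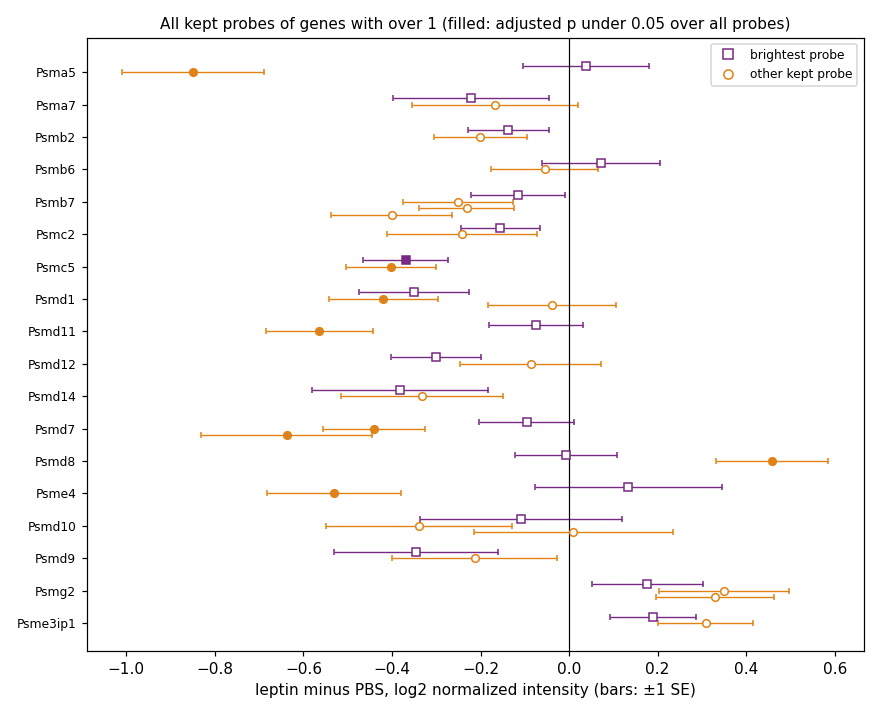
Leptin minus PBS difference in normalized log2 intensity for every kept probe of the 18 genes with more than 1, squares for the brightest probe and circles for the others, with bars of 1 standard error on either side and filled symbols for an adjusted p below 0.05 over all 15062 probes. Psma5, Psmb6, Psmd8, Psmd10 and Psme4 have probes on opposite sides of 0, and both Psmc5 probes are filled at -0.37 and -0.40.

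In cells exposed to interferon the inducible subunits Psmb8, Psmb9 and Psmb10 replace the constitutive catalytic subunits, and Psme1 and Psme2 form an activator cap. Of these 5 genes 4 were higher with leptin, against 8.31% of all genes, with a median of 0.90. Psmb9, which takes the place of Psmb6, had a log2 level of 10.01 ± 0.45 with leptin and 8.53 ± 0.37 with PBS (SD, n = 6 each), a difference of 1.48 ± 0.22 (SE; limma adjusted p = 0.000994). Psmb8, Psmb10 and Psme1 differed by 1.01, 0.90 and 0.49, with limma adjusted p-values of 0.00536, 0.0129 and 0.0133. Psme2 differed by -0.22 ± 0.23 (SE; limma adjusted p = 0.530). Each inducible catalytic subunit was compared with the constitutive one it replaces, as the difference of their log2 levels on each array, in 3 comparisons added after the data were seen. The leptin minus PBS difference was 1.41 for Psmb9 over Psmb6 (two-sided exact permutation p = 0.00216, the smallest that 924 splits allow, adjusted p = 0.00649). It was 1.2 for Psmb8 over Psmb5 (two-sided exact permutation p = 0.00433, adjusted p = 0.00649) and 1.02 for Psmb10 over Psmb7 (two-sided exact permutation p = 0.00866, adjusted p = 0.00866). On these arrays each inducible subunit had a larger difference than the constitutive one it replaces. The pairs were set up with these values known, so the p-values are no independent sign of it.

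**Figure D5:**
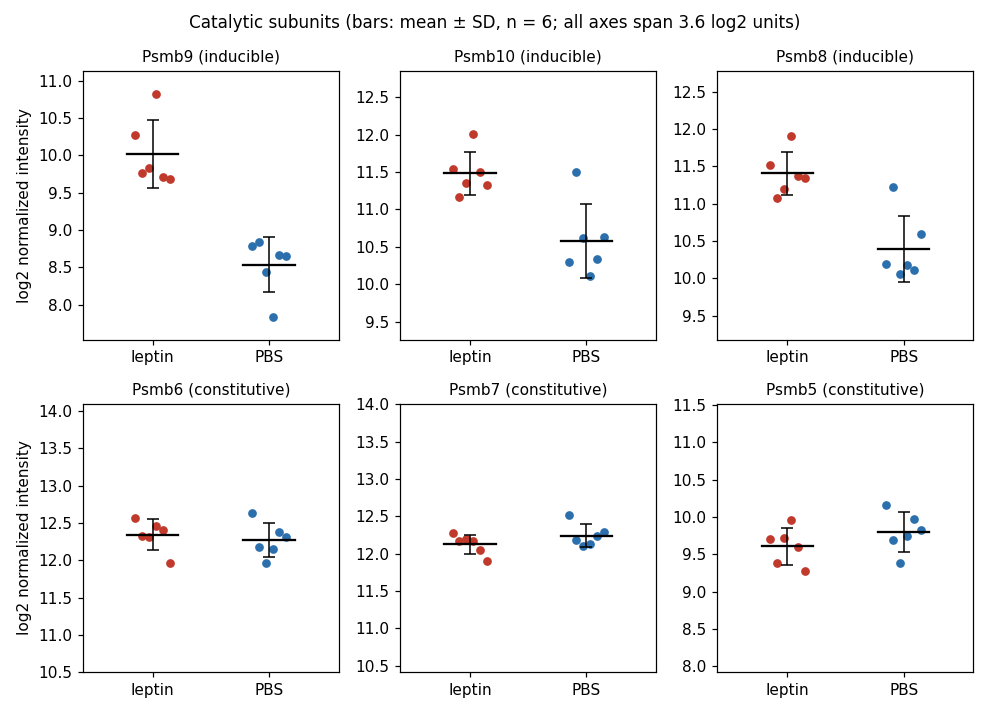
Normalized log2 intensity on each array of the inducible catalytic subunits (upper row) and the constitutive subunits they replace (lower row), leptin left and PBS right, with bars for the mean and SD of 6 arrays and axes of equal span. Psmb9 averages 10.01 with leptin and 8.53 with PBS without overlap, while Psmb5, Psmb6 and Psmb7 overlap between groups.

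Other genes of the pathway were read from the same fit. Of 11 listed proteasome partners 6 were tested, and none passed by limma or had an unadjusted p below 0.05. Among them Sem1, a small subunit of the lid, differed by 0.27 ± 0.13 (SE; limma adjusted p = 0.167) and Pomp, the core maturation factor, by -0.05 ± 0.11 (SE; limma adjusted p = 0.816). Of 4 tested transcription factors of proteasome genes 1 was lower: Nfe2l2, the main factor at antioxidant response elements, had log2 levels of 6.76 ± 0.41 with leptin and 7.58 ± 0.41 with PBS (SD, n = 6 each). Its difference was -0.82 ± 0.22 (SE; limma adjusted p = 0.0212). Nfe2l1 differed by -0.34 ± 0.18 (SE; limma adjusted p = 0.198).

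Of 7 tested ubiquitin shuttles and partners of the segregase p97, 1 was lower, Ufd1, a p97 adaptor. Ufd1 had log2 levels of 6.61 ± 0.14 with leptin and 7.42 ± 0.28 with PBS (SD, n = 6 each), a difference of -0.81 ± 0.13 (SE; limma adjusted p = 0.00196). The ubiquitin and E1 enzyme list had 1 tested gene, Uba6, a ubiquitin-activating enzyme, at 0.29 ± 0.18 (SE; limma adjusted p = 0.280). None of 4 tested ubiquitin ligases linked to FoxO passed by limma or had an unadjusted p below 0.05, and Fbxo31, the one of greatest difference, was at -0.22 ± 0.29 (SE; limma adjusted p = 0.638).

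Some markers of liver cell types were called between the groups, beside 8.31% of all genes called higher and 8.40% called lower. Of 9 tested Kupffer and macrophage markers 4 were higher, and their summed intensity was 9767.2 to 24956.4 with leptin and 6833.3 to 13795.1 with PBS, with Cd5l not detected. The 4 tested lymphocyte markers, Cd3d, Cd3e, Cd3g and Cd79b, were higher, but only Cd3d was detected on at least 3 arrays in each group, and the others were kept through the leptin arrays. Their sums were 549.1 to 802.1 with leptin and 492 to 514 with PBS, while Cd2, Cd8a, Cd4, Ms4a1, Nkg7 and Ptprc were not detected. The 8 tested hepatocyte markers, Alb apart, bear out the labelled tissue, with sums of 133582 to 154028 with leptin and 129340 to 168292 with PBS. Of them 1 was lower, Alb at -0.83 (limma adjusted p = 0.0374). The Alb probe was dim, at 166.2 to 192.9 with leptin and 153.1 to 276.3 with PBS, and its groups overlapped. Apoa1 had 37858.6 to 41929.9 with leptin, so the dim Alb probe limits what can be said of that gene. Markers were also higher in 2 of 7 tested endothelial, 1 of 6 stellate cell and 1 of 2 pancreas acinar genes, and no fat cell marker was detected. None of 4 neutrophil, 2 bile duct and 5 handling genes passed by limma, with 0, 0 and 2 at an unadjusted p below 0.05. The part of these cells in the proteasome differences was not tested.

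The count of members called in either direction, 3 in the main fit and all lower, depends on the settings. It was 7 with the deposited log2 values or with no background correction and 1 with the p-values of the authors' deposited table, adjusted over all genes, by which Psmc3 (adjusted p = 0.0870) and Psmc5 (adjusted p = 0.0841) did not pass. It was 2, Psmc3 and Psmc5, with detection required on at least 9 arrays, and 4 with no filter on dim probes. It was 5 without PBS array 3. It was also 5 without PBS array 2, where Psmg3, below 0, and Psmc3ip, above 0, gained a call. It was 0 against a minimum fold of 1.2. The median differences of both particles stayed below 0 under every alternative run, though some alternatives change only the test and leave the medians as they were.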

How the data were processed

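Per the labels' protocols, liver RNA was purified with Trizol and RNeasy columns and turned into biotin-labelled cRNA; the arrays were Illumina Mouse-6 V2 BeadChips. The authors deposited 1 intensity (average signal) and 1 detection p-value per probe and array, per the file headers. The intensities already share 1 distribution, since the sorted signals of the arrays differ by 0%. The authors also deposited log2 values, which equal the log2 of these intensities, and a table of Cyber-T p-values and log2 differences. Its 12 per-array columns were not used.

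From the intensities, limma 3.58.1 in R 4.3.3 was used for a normexp background correction with the detection p-values, an offset of 16, quantile normalization and log2 (neqc). Probes with a detection p below 0.01 on at least 3 arrays were kept (15062), and the gene fit used the 13068 of them with 1 symbol, for 8819 genes. The kept probe with the highest mean stood for its gene. The groups of 6 arrays, taken from the labels, were compared with lmFit and eBayes, with Benjamini-Hochberg adjustment over all genes or, in the probe fit, over all kept probes. The fit was tested on simulated data first. Arrays correlated at 0.946 to 0.984 within groups and at 0.926 to 0.972 between them, and no 2 arrays were alike (smallest median absolute difference 0.214). The sources used here give no slide or scan batch.

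The member genes and the 22 gene lists were chosen with earlier results of these data known. Named genes are the members that passed, the 8 of smallest adjusted p, for each role the 2 of greatest difference that did not pass, members not detected, and up to 4 genes of each partner list that passed (or 1 where none did), with Nfe2l1, Nfe2l2 and Pomp always. Other members are given so that each is accounted for. Alternatives were tried for background, normalization, the detection filter, the choice of probe, the variance model, array weights, the replicate number as a block, a minimum fold of 1.2, the authors' p-values and each array left out. Motifs were searched in RefSeq promoters.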

Additional observations from a re-analysis of the deposited data

Results flagged for a closer look

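Among 104 gene and group combinations checked for an array far from the others of its group, 3 were found, where chance alone gives about 1 in 20. Psmd12 was high on leptin array 3, at 10.84 on the log2 scale, against 10.42 to 10.57 on the other leptin arrays. Psmb10 was high on PBS array 2, at 11.50, against 10.11 to 10.63 on the other PBS arrays. Psme1 was high on leptin array 4, at 12.50, against 12.04 to 12.16 on the other leptin arrays.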

How the results depend on the processing

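The median differences of the core and of the regulatory particle, and the difference between them, kept their sign under every alternative that gave a value. They moved by less than the spread between arrays, but for the core that spread (SD 0.18) is larger than the median itself (-0.15). A variance trend, the replicate block and a minimum fold leave these values unchanged by design and so do not check them. Array weights likewise leave the difference between the particles unchanged, and the authors' p-values give none. With 1 array left out the core median ran from -0.18 to -0.10, the regulatory particle median from -0.30 to -0.24 and the difference between the particles from 0.099 to 0.17. The count of members called, 3 in the report, was 7 without background correction and with the deposited log2 values, and 6 with normexp at an offset of 50 and with the mean of a gene's probes. It was 5 with a variance trend and with array weights, 1 with the authors' Cyber-T p-values, 0 against a minimum fold of 1.2, and 3 to 5 with 1 array left out, with 5 without PBS array 2 or without PBS array 3. It was 4 with no filter on dim probes and 2, without Psmd6, with detection on at least 9 arrays or on at least 3 in each group. Against that minimum fold 285 of the 8819 genes were called, against 1474 without it, and 994 by the authors' p-values. With 1 array left out the counts were 1053 to 1546 genes and 2053 to 2753 probes. Psmc3 lost its call with the replicate number as a block (adjusted p = 0.0567) and with the authors' p-values (0.0870), and Psmc5 with those p-values (0.0841). Psmd1, Psmc1, Psmd12 and Psmd13 gained a call with the deposited log2 values, with adjusted p-values of 0.0416, 0.0396, 0.0204 and 0.0318. The replicate numbers were not shown to pair the arrays: same-numbered arrays correlated at -0.317 to 0.456 and 2 of 6 correlated best with their own number. With so few arrays this cannot exclude a pairing. The replicate block called 1384 genes, 2542 probes and 2 members, Psmc5 and Psmd6. Without both PBS array 3 and leptin array 4, 1579 genes and 4 members were called. Over the 37 members and 25 alternatives, 867 of 922 values kept direction and call, 6 lost a call, 29 gained one and 20 changed sign. The cause of the sign changes was not tested. With the mean of probes Psma5 was at -0.41, Psmd8 at 0.23 and Psme4 at -0.20, and with array weights Psmd8 was at 0.016. With 1 array left out, or both PBS array 3 and leptin array 4, Psma5 was at -0.094 to 0.11, Psmb1 at -0.15 to 0.039, Psmb6 at -0.012 to 0.15, Psmd8 at -0.081 to 0.046, Psmd10 at -0.35 to 0.035, Pomp at -0.096 to 0.0036 and Fbxo31 at -0.39 to 0.016. The 3 catalytic pairs were run in 20 of the 25 alternatives and kept their call in each. The pairs were set up with their values known, so this is no independent sign of a change. Probes near background, such as those of Psmd6, Psma8 and Psmc3ip, limit what can be said of their genes.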
